A study of Homo sapiens with 15 samples.

Results

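The genes described here are the better expressed members of the ZNF group of zinc finger genes in breast cancer cells that carried a doxycycline-inducible RBM47 transgene. A member is a row of the count table whose symbol is ZNF followed by digits and an optional letter, with a mean of at least 200 normalized counts over the 3 untreated libraries. Of 529 such ZNF rows among 23368 genes, 200 met this rule. The members were chosen by these untreated levels, which therefore are given as a description, with no test. The members just inside the limit were ZNF669, ZNF749 and ZNF134, with untreated means of 200.42, 202.94 and 203.19, and the genes just outside it were ZNF786, ZNF514 and ZNF771, with 199.87, 198.35 and 198.15.

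RBM47 is an RNA-binding protein, and the study asked how RNA levels followed its dose. The 15 libraries came from 3 single-cell derived clones, each grown with doxycycline at 0, 1, 2.5, 5 and 25 ng/ml, and a single library was made of each culture. WT6 and WT10 carried FLAG-tagged wild type RBM47 and MUT3 carried the truncated RBM47-I281fs, all from the same inducible retroviral vector, so that every clone received doxycycline and every untreated library was an uninduced transgenic clone. The labels name MDA231, a triple negative breast cancer line, for every clone, while the methods of the study derive WT6 from the brain-metastatic line CN34-BrM2 and WT10 and MUT3 from MDA231-BrM2, so clone, line and transgene cannot be told apart in part of the comparisons below. Each clone descends from 1 cell, there were no replicate libraries, and the time in doxycycline was not given in the sources used here.

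C2H2 zinc finger proteins form the largest group of human transcription factors. Each finger is a short fold held by a zinc ion between paired cysteines and histidines, and strings of fingers read DNA bases. Many of the proteins carry a KRAB domain at the amino end, which binds the co-repressor TRIM28 and through it the histone methyltransferase SETDB1, HP1 proteins and the NuRD complex, and these proteins are best known for silencing transposable elements. KRAB zinc finger genes arose by duplication and sit in clusters, many of them on chromosome 19. Members without the domain have other jobs, among them promoter binding, chromatin complex assembly, splicing, ribosome quality control and spindle assembly. SCAN, a different amino-terminal domain, lets such proteins pair with each other.

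The libraries held 14955172 to 44771871 reads on genes (median 18152381), and the members took 0.441% to 0.668% of them. The share was 0.525% to 0.531% in WT6 at the lower 3 doses and 0.441% and 0.464% at 5 and 25 ng/ml, against 0.631% to 0.656% in WT10 and 0.645% to 0.668% in MUT3. RBM47 itself rose from 257.5 to 10420 normalized counts between 0 and 25 ng/ml in WT6, with 3966 at 5 ng/ml below the 8094 at 2.5 ng/ml, from 167.7 to 19880 in WT10 and from 73.78 to 22080 in MUT3. Of 6 listed markers of a basal-like or mesenchymal breast cancer line, all were well above 0 in every library, from EGFR at 1480 to 5970 up to VIM at 50800 to 105000, with KRT8 at 8160 to 31000 and KRT18 at 8660 to 24000 among them. Of the 6 luminal markers, ESR1 (at most 12), PGR (at most 23.8) and CDH1 (at most 19.9) were low, EPCAM (136 to 456) and GATA3 (65.4 to 213) were present, and FOXA1 held 131 to 260 in WT6 and at most 13 in the other clones. The leukocyte marker PTPRC was at most 6.18, and of the fibroblast markers COL1A2 was at most 3.29 and COL1A1 178 to 493. The part of these clone differences in the results was not tested. In bulk RNA, fewer cells of a kind and less RNA per cell cannot be told apart.

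A KRAB A box was found by letter pattern in the coding sequence of 73 members, 123 had none, and 4 (ZNF252, ZNF271, ZNF542 and ZNF788) had no annotated coding sequence. The search allowed 1 mismatch in 8 fixed positions and misses divergent KRAB domains: ZNF192 (current symbol ZKSCAN8), ZNF496, ZNF202, ZNF263 and ZNF282 belong to families known for such domains and were counted as members without the pattern. A SCAN pattern was present in 17 members, 4 of which also had the KRAB pattern. The shared core of the KRAB A box is shown for the members of this type that stood highest above the mutant clone, and for ZNF689, a member with the same box and the opposite course. The sequences are from the GENCODE annotation of hg19, read 5′ to 3′ on the strand of the gene, and the capitals mark the codons of 4 of the 8 fixed positions.
ZNF468: ttatacagggacGTGATGctgGAGAAT
ZNF320: ctatacagagacGTGATGctgGAGAAT
ZNF226: ctgtaccgagatGTGATGgtgGAGAAC
ZNF33A: ctgtatagagatGTGATGctgGAGAAC
ZNF841: ttgtacagggacGTGATGttgGAGAAC
ZNF587: ttgtaccgtgatGTGATGctaGAGAAC
ZNF585B: ctgtaccgggatGTGATGctgGAGACC
ZNF689: ctgtaccgggacGTGATGcggGAGACC
These stretches lie at chr19:53352362-53352388 (minus strand) in ZNF468, chr19:53391402-53391428 (minus) in ZNF320, chr19:44676319-44676345 (plus) in ZNF226, chr10:38305895-38305921 (plus) in ZNF33A, chr19:52580233-52580259 (minus) in ZNF841, chr19:58367553-58367579 (plus) in ZNF587, chr19:37680948-37680974 (minus) in ZNF585B and chr16:30621180-30621206 (minus) in ZNF689, each within a coding exon. Across the 73 members with the pattern, 63 distinct coding sequences were found for this core. The last capital codon used up the allowed mismatch in ZNF585B and ZNF689.

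The linker between neighboring fingers is close to constant over the family, and it is shown for a rising and for falling members because it is shared by both. The capitals mark the codons of the 5 linker residues.
ZNF468: cacACTGGTGAGAAACCTtac
ZNF226: cacACTGGGGAGAAGCCAttc
ZNF192: cacACTGGGGAGAAACCCtat
ZNF689: catACAGGGGAGAAGCCCtat
ZNF768: cacACCGGTGAGAAGCCCtac
They were read from chr19:53344734-53344754 (minus), chr19:44680568-44680588 (plus), chr6:28121088-28121108 (plus), chr16:30616389-30616409 (minus) and chr16:30536594-30536614 (minus). Shared stretches of this kind bear on counting: 27 members, 10 of them with the KRAB pattern, shared over 5% of their transcript's 75-base runs with another gene, and 131 shared none.

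Members with the KRAB pattern had lower levels and more fingers than the rest. Per kb of transcript, the mean over the 15 libraries had a median of 65 normalized counts in the 73 members with the pattern and of 138 in the 123 without it, against 200 over the other genes tested. The pattern went with a median of 12 fingers, a transcript of 4070 bases and 43.3% GC, and its absence with 7 fingers, 3980 bases and 49.9% GC. ZNF142 had the most fingers, 36, and 7 members (ZNF185, ZNF259, ZNF330, ZNF503, ZNF703, ZNF839 and ZNF862) had no match to the C2H2 pattern. That pattern fixed the spacing of the cysteines and histidines, so fingers of another spacing could be missed. The highest untreated means were those of ZNF598 (2822), ZNF207 (2772), ZNF146 (2575), ZNF259 (2525) and ZNF185 (2462). Per kb of transcript the highest means were found in ZNF593 (1180), ZNF511 (1040), ZNF76 (879), ZNF428 (831) and ZNF598 (788).

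As one group, the members fell more often than they rose with dose in WT6 and did neither to excess in WT10. The measure was a slope, the change in log2(normalized count + 1) per unit of log2(dose + 1), fitted for each clone in 1 limma model over all genes, with an adjusted p under 0.05 as the threshold. In WT6, 79 of the 200 members fell (39.5%) and 35 rose (17.5%), where 28.3% of all 12644 genes tested fell and 29.2% rose. Among the genes whose untreated mean was also at least 200, 33.2% fell and 28.8% rose. Fitted without the untreated libraries, which had chosen the members, 60 of 199 fell and 26 rose in WT6, beside 22.2% and 22.7% of all genes. In WT10, 18 members fell (9%) and 23 rose (11.5%), against 9.83% and 10.2% of all genes. In MUT3, 6 members had an unadjusted p under 0.05 in limma, beside 295 of all 12644 genes. No member and none of the other genes passed there in either direction. Likewise edgeR and DESeq2 passed 0 members. RBM47 itself was not called in limma although it went from 73.78 to 22080 in MUT3, so the absence of calls does not show level genes. MUT3 fitted alone passed 0 rising and 2 falling members, beside 0.91% and 0.482% of all genes.

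The slopes were then refitted after smooth trends on transcript length and GC content had been removed from every library. The second fit gave 76 falling members (38%) and 41 rising (20.5%) in WT6, where 31.5% and 27% of the 12113 annotated genes passed, and where 36.8% and 27% of those with untreated means of at least 200 did. It gave 34 falling (17%) and 28 rising (14%) in WT10, beside 20.5% and 15.5% of all genes. In MUT3 it passed 0 members, beside 0.0578% of all genes rising and 0% falling. At an unadjusted p under 0.05 in limma there were 18 members, 12 of them with the KRAB pattern, beside 645 of all 12113 genes. The members' median slope was −0.06 in WT6 before and −0.033 after this step, where that of all genes was 0.005 and −0.007. Of the members that fell in WT6, 60 passed in both fits, and of those that rose, 25 did.

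Without trend removal the members' median fell in WT6 at 5 and 25 ng/ml and stayed near 0 in WT10. In WT6 the median change from 0 ng/ml, in log2 units without trend removal, was −0.03 at 1, −0.04 at 2.5, −0.21 at 5 and −0.19 at 25 ng/ml. In WT10 it was between −0.06 and 0.02 at every dose, and in MUT3 between −0.02 and 0.01. With trends removed the WT6 medians were −0.03, −0.05, −0.09 and −0.17 from 1 to 25 ng/ml, and the WT10 median was −0.08 at 25 ng/ml. Without the 25 ng/ml libraries, 49 members fell and 18 rose in WT6, beside 18.1% and 19.1% of all genes. In WT10 0 members passed there either way, and with trends removed 1 rose and 0 fell. Few of the other genes passed in WT10 either, with 0.111% of all genes rising and 0.0238% falling before trend removal and 0.282% and 0.108% after it. The slopes of members that lost their WT10 call this way were smaller in part (ZNF226, 0.16 to 0.02) and larger in part (ZNF468, 0.20 to 0.31), so a lost call does not show a smaller slope. A single step from 0 to 25 ng/ml exceeded 1.5-fold downward in 58 members (29%) and upward in 21 (10.5%) in WT6, beside 19.5% and 22.6% of all genes. It did so in 14 (7%) and 13 (6.5%) in WT10, beside 7.05% and 10.2%, and in 1 and 0 in MUT3, beside 1.79% and 1.65%.

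**Figure D1:**
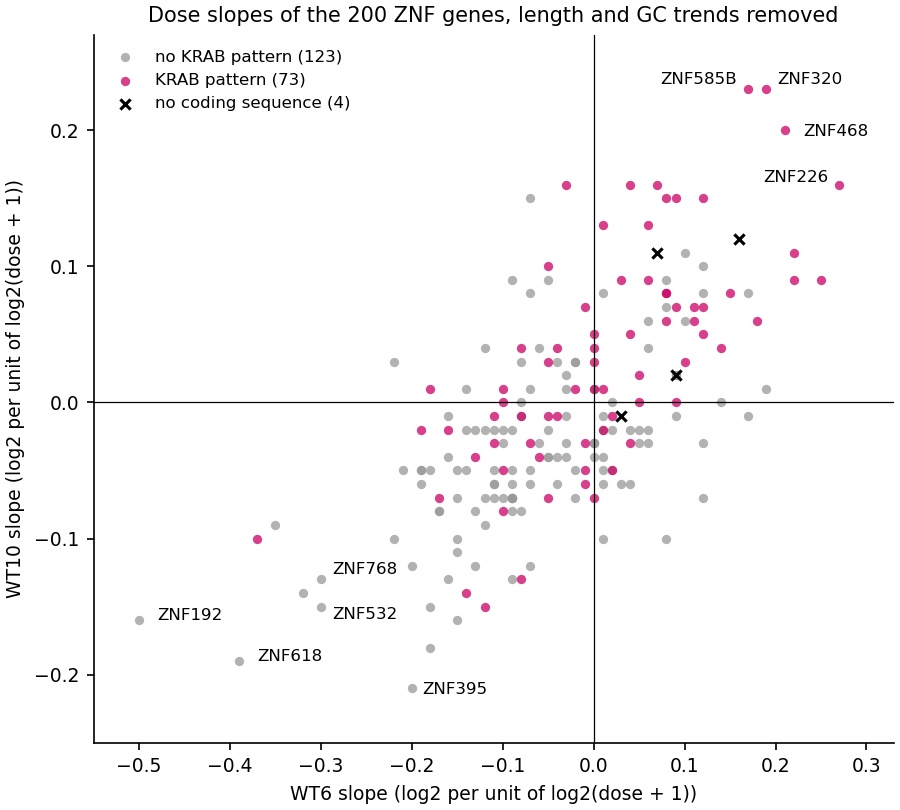
Slope of each of the 200 ZNF genes in WT6 (horizontal axis) and WT10 (vertical axis), in log2 units per unit of log2(dose + 1) with length and GC trends removed; color and a cross mark members with the KRAB pattern (73), without it (123) and with no coding sequence (4). Members without the pattern reach −0.5 in WT6 at ZNF192 and −0.21 in WT10 at ZNF395, and the upper right corner holds KRAB members, led by ZNF226, ZNF468, ZNF320 and ZNF585B.

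The members were also counted by whether they carried the KRAB pattern. In WT10 without trend removal, 16 of the 73 KRAB members rose (21.9%) and 3 fell (4.11%), where 10.2% and 9.83% of all genes did, while 6 of the 123 members without the pattern rose (4.88%) and 15 fell (12.2%). With trends removed, the WT10 counts were 18 rising (24.7%) and 3 falling (4.11%) KRAB members, and 9 rising (7.32%) and 31 falling (25.2%) members without the pattern, beside 15.5% rising and 20.5% falling of all genes. Among genes with untreated means of at least 200 these shares were 15.2% and 25.1%. The falling share of members without the pattern was near the latter, although levels above that limit were not matched. In WT6 the KRAB members held 14 rising and 21 falling genes before trend removal and 22 rising (30.1%) and 14 falling (19.2%) after it, so their balance turned with that step. Members without the pattern gave 58 falling (47.2%) and 17 rising (13.8%) before it, where 33.2% and 28.8% of genes above that limit did. After it they gave 62 falling (50.4%) and 18 rising (14.6%), where 36.8% and 27% of those genes did. No test of the difference between the 2 kinds of member was made, and the counts are read against the shares of all genes.

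The median changes of KRAB members at 25 ng/ml also lay above those of members without the pattern in both wild type clones. In WT10 with trends removed, the 73 KRAB members had a median change of 0.14 log2 units at 25 ng/ml and 64.4% of them were higher than untreated, whereas the members without the pattern had a median of −0.18 and 25.2% were higher. In WT6 the medians at 25 ng/ml were 0.02 and −0.28. In MUT3 they were −0.09, with 28.8% higher, and −0.02, so the KRAB members leaned downward in the mutant clone at that dose although none of them passed. All genes together had medians of −0.04, −0.04 and 0 in WT6, WT10 and MUT3. Without trend removal the KRAB median at 25 ng/ml was −0.12 in WT6, with 41.1% higher, and 0.2 in WT10, with 64.4% higher. The KRAB medians thus went opposite ways in these clones before that step. Members without the pattern had −0.33 and −0.19 there, and all genes 0.01 and −0.01.

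**Figure D2:**
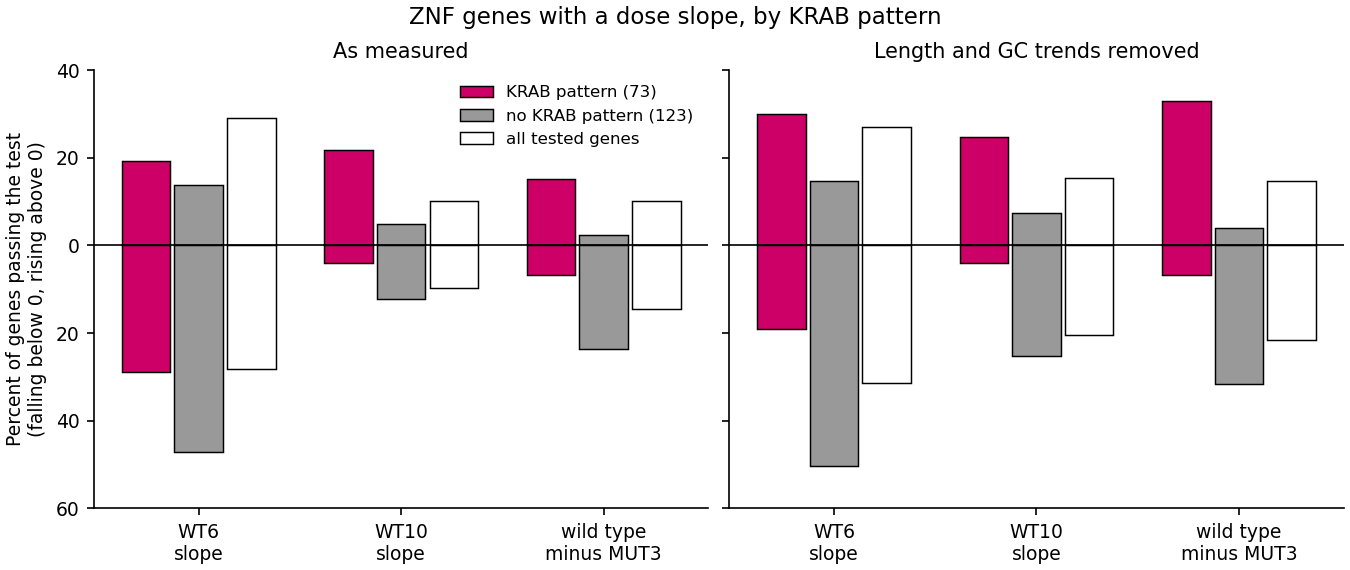
Percent of genes with a rising (above 0) or falling (below 0) slope at an adjusted p under 0.05 in limma, as measured (left) and with length and GC trends removed (right), for KRAB members, members without the pattern and all genes tested. In WT10 with trends removed the bars stand at 24.7% rising and 4.11% falling for KRAB members and at 7.32% and 25.2% for members without the pattern.

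The comparison with the mutant took the slope averaged over WT6 and WT10 less that of MUT3. Without trend removal 17 members stood above the mutant (8.5%) and 34 below it (17%), beside 10.1% and 14.6% of all genes. With trends removed 30 stood above (15%) and 44 below (22%), beside 14.7% and 21.5%, so the counts of the group as a whole were close to the shares of all genes. By the letter pattern, 24 KRAB members stood above (32.9%) and 5 below (6.85%), while 5 members without the pattern stood above (4.07%) and 39 below (31.7%), where 14.7% and 26.3% of genes with untreated means of at least 200 did. The latter kind is not free of KRAB genes. ZNF192 and ZNF496, of families whose KRAB domains the pattern misses, were counted there and had differences among the lowest. Without the 25 ng/ml libraries 0 KRAB members passed either way and 0 and 1 members without the pattern did, where few of all genes passed (0.381% and 0.481%). Without the untreated libraries the KRAB counts were 15 above and 2 below, beside 10.5% and 17.1% of all genes. The WT6 and MUT3 parts of this comparison come from clones whose parental line may differ.

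Among the members that rose in both wild type clones and in both fits there were 8, and all 8 carried the KRAB pattern: ZNF226, ZNF274, ZNF302, ZNF320, ZNF33A, ZNF468, ZNF585B and ZNF75A. In each fit alone more members did so. Without trend removal 11 of 200 rose in both clones, 10 of them with the pattern, beside 7.02% of all genes. With trends removed 17 of 200 did, 12 with the pattern and 5 without it, beside 11.1% of all genes. In each fit alone the share of the members was thus under that of all genes. The share of all genes that rose in both clones and both fits was not counted, so no excess can be read from the 8. ZNF302 and ZNF75A were named after their values had been seen.

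ZNF468 (chr19:53341263-53360902, minus strand) and its neighbor ZNF320 (chr19:53364104-53400946, minus strand) encode KRAB proteins with 11 fingers each. ZNF468 had 361, 469, 557, 471 and 639 normalized counts at 0, 1, 2.5, 5 and 25 ng/ml in WT6. In WT10 it had 151, 201, 234, 308 and 318, and in MUT3 169, 161, 139, 168 and 149. Every WT6 library was above every WT10 library, every induced library was above the untreated library of its clone in both wild type clones, and the MUT3 libraries showed no such course. Its slope with trends removed was 0.21 ± 0.03 (SE) in WT6 (adjusted p = 1.59e-05), 0.20 ± 0.04 in WT10 (adjusted p = 0.000801) and 0.24 ± 0.05 above MUT3 (adjusted p = 0.00261). Without the 25 ng/ml libraries the WT10 slope of ZNF468 was 0.31 with an adjusted p of 0.103.

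ZNF320 had 435, 439, 512, 455 and 592 in WT6. The WT10 values were 173, 184, 220, 248 and 344, rising at every step, and the MUT3 values were 361, 354, 313, 369 and 326. Thus WT10 reached the MUT3 range only at the top dose. The slopes were 0.19 ± 0.02 in WT6 (adjusted p = 9.4e-06) and 0.23 ± 0.03 in WT10 (adjusted p = 9.31e-05), and the difference from MUT3 was 0.24 ± 0.03 (adjusted p = 0.000162). Without trend removal the WT6 slope was 0.09 ± 0.03 (adjusted p = 0.0148), and this value fell to 0.05 (adjusted p = 0.484) without the 25 ng/ml libraries.

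ZNF226 (chr19:44669226-44682534, plus strand), with 17 fingers, had the highest WT6 slope of the members with trends removed. Its WT6 values were 259, 253, 327, 496 and 614. Its WT10 values were 338, 323, 346, 387 and 577, and its MUT3 values lay between 400 and 443. In WT6 the increase began at 2.5 ng/ml, and in WT10 most of it came between 5 and 25 ng/ml. The slopes were 0.27 ± 0.03 in WT6 (adjusted p = 9.52e-06) and 0.16 ± 0.03 in WT10 (adjusted p = 0.00239), and the WT10 slope without the top dose was 0.02 (adjusted p = 0.925).

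ZNF585B (chr19:37672481-37709055, minus strand), with 21 fingers, had 226, 257, 258, 277 and 305 in WT6, 187, 198, 193, 252 and 362 in WT10, and 189 to 218 in MUT3. The WT10 libraries at 5 and 25 ng/ml were above all MUT3 libraries, while those at lower doses were not. The slopes were 0.17 ± 0.03 and 0.23 ± 0.04 (adjusted p = 0.000496 and 0.000209). The gene shared 14.6% of its 75-base runs with another gene, so its counts are less certain than those of ZNF226, which shared none.

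ZNF274, which is known to bring SETDB1 to the 3′ ends of other zinc finger genes, had 976, 1030, 1120, 1100 and 1370 in WT6 and 665, 679, 700, 705 and 859 in WT10. In MUT3 it had 661 to 695 at the 4 lower doses and 767 at the highest. It rose in both wild type clones, by a slope of 0.08 ± 0.02 in each (adjusted p = 0.000562 and 0.00301), and its difference from MUT3 was 0.06 ± 0.02 (adjusted p = 0.0542), which missed the threshold. ZNF10, the other KRAB gene listed for SETDB1 recruitment, had an untreated mean under 200 and passed in no comparison.

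ZNF33A (chr10:38299578-38354016, plus strand) had 296, 297, 367, 426 and 424 in WT6, 466, 475, 557, 592 and 629 in WT10, and 451, 461, 396, 449 and 372 in MUT3. Both wild type clones rose with dose while the mutant slope of −0.06 ± 0.03 did not pass (adjusted p = 0.949), and the difference of slopes was 0.22 ± 0.03 (adjusted p = 0.000364). Its sister gene ZNF33B, which shared 2.29% of its runs with another gene, rose in WT6 with trends removed by 0.18 ± 0.04 (adjusted p = 0.000886) and not without that step (0.08 ± 0.04, adjusted p = 0.123). ZNF268, a KRAB gene with 25 fingers on a transcript of 13390 bases, showed the same dependence in part, with WT6 values of 321, 337, 417, 416 and 490 and slopes of 0.13 ± 0.03 before and 0.25 ± 0.03 after trend removal (adjusted p = 0.00392 and 7.19e-06). ZNF480 had 504, 513, 554, 728 and 761 in WT6 (slope 0.22 ± 0.03, adjusted p = 7.31e-05) and 285, 269, 263, 320 and 406 in WT10, where it passed before trend removal (0.13 ± 0.04, adjusted p = 0.0309) and missed after it (0.11 ± 0.04, adjusted p = 0.0655).

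**Figure D3:**
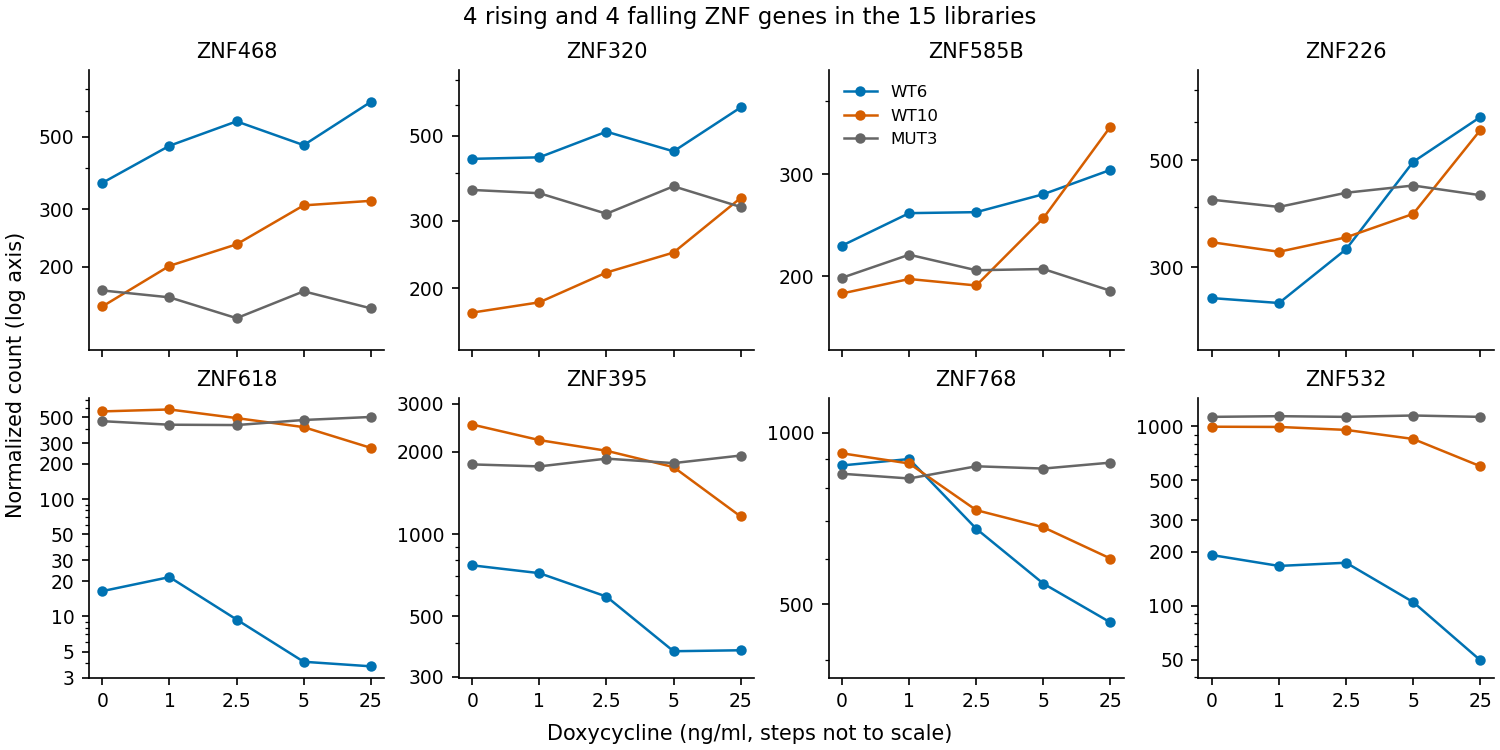
Normalized counts of 4 rising KRAB members (top row) and 4 falling members without the KRAB pattern (bottom row) in each library, on log axes that differ between panels, against doxycycline in ng/ml with steps not to scale; each point is 1 library and lines join the libraries of a clone. MUT3 stays level in the bottom row, at 1130 to 1150 for ZNF532, while both wild type clones end lower at 25 ng/ml than untreated.

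Members standing above MUT3 were not always members that rose. ZNF587 (chr19:58361227-58376485, plus strand) had 466, 504, 531, 563 and 671 in WT10, 700, 721, 824, 349 and 624 in WT6, and 644, 575, 477, 426 and 386 in MUT3. With trends removed it passed in the difference from MUT3 (0.24 ± 0.08, adjusted p = 0.0235) but in none of the clones alone, and it missed before trend removal (0.18 ± 0.09, adjusted p = 0.157), where it passed without the 5 ng/ml libraries (0.19, adjusted p = 0.00273). It also missed with the GC trend alone removed (adjusted p = 0.162) and with median transcript lengths (adjusted p = 0.134), and without the untreated (0.149), the 1 ng/ml (0.0733) or the 25 ng/ml libraries (adjusted p = 0.343), and the mutant slope was −0.18 ± 0.07 (adjusted p = 0.789). It shared 18.6% of its runs with another gene. ZNF841 had 157, 188, 197, 210 and 282 in WT10, where it rose by 0.16 ± 0.04 (adjusted p = 0.00658), 255, 286, 359, 232 and 285 in WT6, where it did not pass (0.04 ± 0.04, adjusted p = 0.309), and 246, 230, 201, 210 and 176 in MUT3. ZNF542, a pseudogene in the current annotation (symbol ZNF542P), shared 88.3% of its runs with other genes and its slopes are uncertain on that ground.

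Without trend removal 16 of 200 members fell in both wild type clones and with it 27 did, beside 7.34% and 16% of all genes. Members that fell in both clones and both fits numbered 16, of which 2 carried the KRAB pattern. The share of all genes under this joint rule was not counted. Those with the pattern, ZNF304 and ZNF746, encode proteins studied outside this setting, the first for silencing the INK4-ARF locus and the second as a substrate of the ubiquitin ligase parkin. ZNF202 and ZNF282, whose KRAB domains the pattern missed, were also among the 16. ZNF304 had 354, 310, 320, 223 and 197 in WT6, 212, 209, 198, 207 and 126 in WT10 and 162 to 187 in MUT3, with slopes of −0.14 ± 0.03 and −0.14 ± 0.04 (adjusted p = 0.00136 and 0.00637). ZNF746, named after its values had been seen, had slopes of −0.12 ± 0.02 and −0.15 ± 0.02 (adjusted p = 0.000626 and 0.000257). The WT10 libraries of ZNF304 up to 5 ng/ml lay within 198 to 212, so its decrease there was that of the top dose.

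ZNF395 (chr8:28203107-28260218, minus strand), a gene known to respond to hypoxia and with 1 C2H2 finger, had 768, 719, 590, 372 and 375 in WT6. In WT10 it had 2520, 2210, 2020, 1760 and 1160, and in MUT3 1770 to 1940. The WT10 values fell at every step and ended below all MUT3 libraries, and those of WT6 were lower than any library of the other clones. The slopes were −0.20 ± 0.03 in WT6 (adjusted p = 5.49e-05) and −0.21 ± 0.02 in WT10 (adjusted p = 1.02e-05), and the difference from MUT3 was −0.21 ± 0.03 (adjusted p = 9.83e-05). It was the one named member whose difference from MUT3 still passed without the 25 ng/ml libraries (−0.21, adjusted p = 0.047 with trends removed), although it missed there before trend removal (−0.30, adjusted p = 0.178).

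ZNF768 (chr16:30535325-30538142, minus strand), with 10 fingers, had 877, 900, 679, 544 and 465 in WT6, 921, 884, 732, 683 and 602 in WT10, and 832 to 887 in MUT3. The clones began at about the same level, and both wild type clones were below all mutant libraries from 2.5 ng/ml upward. The slopes were −0.30 ± 0.03 (adjusted p = 1.88e-06) and −0.13 ± 0.03 (adjusted p = 0.00244). ZNF574, with 18 fingers, had 951, 969, 784, 644 and 609 in WT6 and 1970, 1830, 1610, 1380 and 1160 in WT10, with slopes of −0.18 ± 0.02 and −0.15 ± 0.02 (adjusted p = 1.49e-05 and 6.7e-05). ZNF362 had 249, 267, 199, 169 and 152 in WT6 and 391, 350, 312, 302 and 198 in WT10 (−0.18 ± 0.04 and −0.18 ± 0.03, adjusted p = 0.000895 and 0.000832), and it shared 38.7% of its runs with another gene. ZNF239 fell by 0.15 and 0.16 per unit of dose in WT6 and WT10 (adjusted p = 0.000401 and 0.0138), but its WT6 slope before trend removal was −0.07 and did not pass without the 25 ng/ml library (−0.04, adjusted p = 0.5, before trend removal). That slope before trend removal also missed with edgeR (adjusted p = 0.0644), with DESeq2 (adjusted p = 0.0803) and in limma without precision weights (adjusted p = 0.0539).

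Several of the lowest WT6 slopes came with a drop between 2.5 and 5 ng/ml. ZNF192 (chr6:28109661-28127238, plus strand), a SCAN protein with 9 fingers, had 292, 245, 230, 57.2 and 57.3 in WT6, 448, 499, 513, 434 and 267 in WT10, and 340 to 370 in MUT3. Its WT6 slope was −0.50 ± 0.09 (adjusted p = 0.000393) and its WT10 slope, carried by the top dose, was −0.16 ± 0.06 (adjusted p = 0.0331 with trends removed and 0.124 before). ZNF281, which binds GC-rich promoters and is known from work on pluripotency and epithelial-mesenchymal transition, had 552, 541, 529, 183 and 179 in WT6 (−0.35 ± 0.07, adjusted p = 0.000714). Its WT10 values were 594, 659, 671, 648 and 453, and there the slope of −0.09 ± 0.05 did not pass (adjusted p = 0.201). ZNF496, ZNF689 and ZNF623 showed the same step in WT6, from 538 to 193, from 136 to 53.1 and from 496 to 293 between 2.5 and 5 ng/ml. The step fell between the doses at which the RBM47 value of WT6 dropped from 8094 to 3966, and between which the members' share of all reads fell; the part of either in it was not tested. Without the 25 ng/ml libraries the WT6 slopes of ZNF192, ZNF281, ZNF496, ZNF689 and ZNF623 still passed. With trends removed those of ZNF618 (−0.49, adjusted p = 0.0834) and ZNF532 (−0.16, adjusted p = 0.0536) did not. The ZNF618 slope was steeper there than with all libraries, so its lost call does not show a smaller slope. Among rising members, ZNF33B lost its WT6 call with trends removed (0.18, adjusted p = 0.0921), and ZNF468 (0.17, adjusted p = 0.0748) and ZNF585B (0.10, adjusted p = 0.162) lost theirs before trend removal and kept it after.

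ZNF618 (chr9:116638562-116818873, plus strand), a partner of the methyl-DNA binding protein UHRF2, was nearly silent in WT6. The values there were 16.4, 21.6, 9.38, 4.09 and 3.74, and those of the highest pair of doses rested on 3 reads each. In WT10 it had 561, 583, 492, 412 and 274, and in MUT3 429 to 503. The WT6 slope of −0.39 ± 0.12 (adjusted p = 0.0108) therefore covers few reads. The WT10 slope was −0.19 ± 0.03 (adjusted p = 0.000253), with the library at 25 ng/ml below all MUT3 libraries.

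Transcript length went with the WT6 slopes before trends were removed. With the annotated genes split by length into 5 classes of equal size, 3.75% of all genes fell in the shortest class in WT6 and 54.5% in the longest. Among members the falling counts over the same classes were 0 of 12, 4 of 35, 17 of 50, 29 of 54 and 29 of 49. Members are long, with a median of 4020 bases against 3290 in the other genes, and 66 of them fell in WT6 with the length trend alone removed (27.5% of all genes) and 97 with the GC trend alone removed (32.8%). In the longest class with trends removed, 9 of 20 KRAB members rose and 1 fell in WT6, whereas 4 of 29 members without the pattern rose and 15 fell, beside 680 rising and 781 falling of all 2423 genes. From the shortest class to the fourth, the KRAB members gave 0 rising and 1 falling of 1, 1 and 2 of 9, 6 and 5 of 23, and 6 and 5 of 20. Members without the pattern gave 4 and 2 of 10, 6 and 11 of 23, 1 and 13 of 27, and 3 and 21 of 34. In WT10 the longest class held 7 rising and 0 falling KRAB members and 3 rising and 6 falling members without the pattern, beside 349 and 442 of all 2423 genes, so the latter lay near the share of all genes there.

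The counts also varied by GC content. Between 40.5% and 45.2% GC, the one of 5 equal GC classes that held the most members, 13 of 32 KRAB members rose and 3 fell in WT6 with trends removed, and 11 rose and 0 fell in WT10. The 20 members without the pattern in that range gave 4 rising and 9 falling in WT6 and 2 and 5 in WT10, and all 2423 genes there gave 656 and 731 in WT6 and 382 and 468 in WT10. Between 45.2% and 51.5% GC no such contrast was seen in WT6, with 1 rising and 5 falling of 14 KRAB members and 3 and 8 of 20 members without the pattern. Above 58.3% GC all 3 KRAB members fell in WT6, as did 21 of 37 members without the pattern. Level, unlike length and GC, was not matched here, and KRAB members had the lower levels, with a median untreated mean of 288 against 528.

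**Figure D4:**
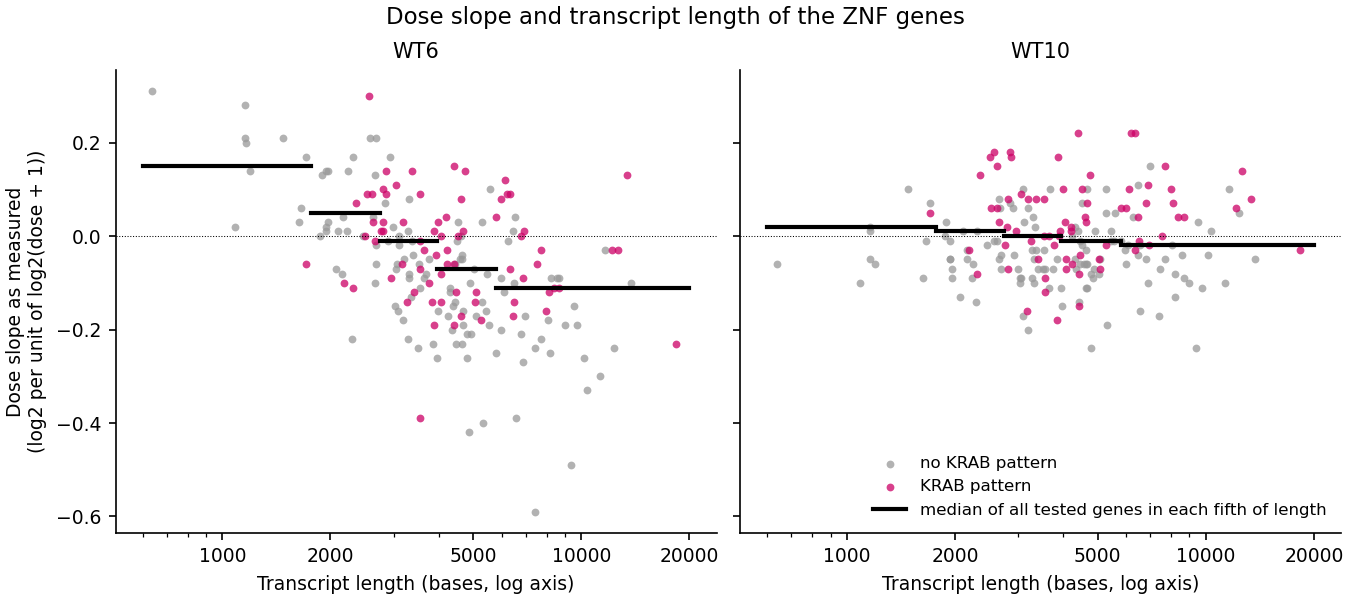
Dose slope without trend removal (vertical axis, log2 units per unit of log2(dose + 1)) against transcript length in bases (log axis) in WT6 (left) and WT10 (right); points are members colored by KRAB pattern and black bars the median of all tested genes in each of 5 length classes. The bars step from 0.15 down to −0.11 in WT6 and from 0.02 to −0.02 in WT10.

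Inside the KRAB group the counts were also taken by chromosome, with no test of the difference. With trends removed in WT10, 14 of the 39 KRAB members on chromosome 19 rose (35.9%) and 1 fell (2.56%), and 4 (11.8%) and 2 of the 34 on other chromosomes, beside 15.5% and 20.5% of all genes. In WT6 the counts were 15 rising (38.5%) and 6 falling (15.4%) on chromosome 19 and 7 and 8 elsewhere, beside 27% and 31.5% of all genes. Above and below MUT3 they were 18 (46.2%) and 2 on chromosome 19 and 6 and 3 elsewhere, beside 14.7% and 21.5%. The 25 members without the pattern on chromosome 19 gave 5 rising and 13 falling in WT6, 2 and 5 in WT10, and 0 above and 7 below MUT3. Of all members without the pattern, those with 6 or more fingers held 45 of 73 falling (61.6%) and 5 rising (6.85%) genes in WT6, and those with 0 to 5 fingers 16 of 49 and 13. The 17 SCAN members gave 3 rising and 5 falling (29.4%) in WT6 and 1 and 3 (17.6%) in WT10, near the falling shares of all genes.

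Grouping ZNF genes on chromosome 19 whose starts lay within 1 Mb of the next, a rule chosen after the values had been seen, gave runs whose counts stand beside 14.7% of all genes above and 21.5% below MUT3, with no test between runs. The run from 52074536 to 54083523 held 7 members, all with the KRAB pattern (ZNF614, ZNF841, ZNF480, ZNF468, ZNF320, ZNF347 and ZNF331), of which 5 stood above MUT3 and 0 below with trends removed. Among the 36 tested ZNF genes of that run, members or not, 14 stood above and 0 below. The run from 44029649 to 45579736, which holds ZNF226, had 4 of 10 members above and 0 below. The run from 55987984 to 58992597, near the end of the long arm, had 3 of 21 above and 6 below, and that from 11594242 to 12750912 had 0 of 5 above and 1 below. Neighboring paralogs can share reads, which bears on these counts.

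Members with a known task outside KRAB repression were described by lists of function. Of 3 in translation, ZNF598, the ubiquitin ligase that senses collided ribosomes, held between 2160 and 3000 over all 15 libraries and passed in no clone. ZNF622 and ZNF593, both known for maturation of the large ribosomal subunit, rose in WT6, by 0.06 ± 0.02 and 0.12 ± 0.03 with trends removed (adjusted p = 0.0249 and 0.00193), and not in WT10. ZNF593 had 801, 864, 821, 1820 and 1920 in WT6, 557, 460, 457, 422 and 448 in WT10, and 504 to 584 in MUT3. Its transcript, 638 bases, is the shortest of the members, and its WT6 slope before trend removal was 0.31 ± 0.05.

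Of 4 members that bind RNA or take part in splicing, ZNF326, a subunit of the DBIRD complex that acts in transcription-coupled splicing, fell in both wild type clones. It had 718, 667, 619, 568 and 385 in WT6, 625, 593, 597, 556 and 431 in WT10, and 610 to 729 in MUT3. Its slope stood 0.14 ± 0.03 below that of the mutant (adjusted p = 0.00238). ZNF346, which binds double-stranded RNA, fell in WT6 by 0.06 ± 0.02 (adjusted p = 0.033) and ZNF638 did so before trend removal and not after it. ZNF830 rose in WT6 (0.08 ± 0.03, adjusted p = 0.0293) and fell in WT10 (−0.10 ± 0.03, adjusted p = 0.00848) with trends removed, and before that step its WT10 slope did not pass (−0.06 ± 0.03, adjusted p = 0.156). ZNF207, a spindle assembly factor that loads the checkpoint protein BUB3, had 2500, 2440, 2290, 2250 and 1830 in WT6 and a WT6 slope of −0.10 ± 0.02 before (adjusted p = 0.00226) and 0.03 ± 0.02 after trend removal (adjusted p = 0.271), on a transcript of 13740 bases.

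Of 9 genes listed as partners of chromatin regulators 7 were members, of which 6 fell in WT6 in both fits and ZNF516 did not. Beside them, 28.3% and 31.5% of all genes fell there, and with trends removed 36.8% of genes with untreated means of at least 200 did. ZNF532, ZNF592 and ZNF687 are known to form a complex with ZMYND8, and ZNF532 is a fusion partner in NUT carcinoma. ZNF592 had 1190, 1080, 1030, 629 and 573 in WT6, 1860, 1910, 1700, 1560 and 1240 in WT10, and 1180 to 1380 in MUT3 (slopes −0.15 ± 0.02 and −0.10 ± 0.02, adjusted p = 5.65e-05 and 0.00135). ZNF532 had 192, 167, 174, 105 and 49.8 in WT6, 996, 993, 956, 851 and 600 in WT10, and 1130 to 1150 in MUT3 (−0.30 ± 0.05 and −0.15 ± 0.02, adjusted p = 0.000136 and 0.000214). ZNF687 passed in WT6 (−0.16 ± 0.03, adjusted p = 0.00013) and not in WT10 (−0.04 ± 0.02, adjusted p = 0.254). ZNF217, an amplified gene of breast cancer that works with the CoREST and LSD1 complex, had 987, 1070, 1020, 564 and 508 in WT6 and 699 to 861 in WT10, with a WT6 slope of −0.16 ± 0.04 (adjusted p = 0.00131). ZNF644, a partner of the G9a methyltransferases, fell in WT6 by 0.10 ± 0.02 (adjusted p = 0.000324), and ZNF512B, which binds NuRD, by 0.13 ± 0.03 (adjusted p = 0.000675).

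Of 5 listed promoter-binding factors, ZNF143, ZNF148 and ZNF263 passed in neither wild type clone with trends removed, ZNF281 fell in WT6 as above, and ZNF384 fell in WT10 by 0.05 ± 0.02 (adjusted p = 0.0333). ZNF143, which sits at promoters and chromatin loop anchors, held 458 to 501 in WT6 and 325 to 396 in WT10. ZNF148 had 602, 614, 615, 525 and 380 in WT6, and its slope of −0.15 ± 0.03 before trend removal (adjusted p = 0.00202) became −0.03 ± 0.02 after it (adjusted p = 0.286).

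The co-repressors that KRAB proteins work through were also measured, although they are not members. Of 16 tested, 8 fell and 3 rose in WT6 with trends removed, beside 31.5% and 27% of all genes, and 8 fell and 1 rose in WT10, beside 20.5% and 15.5%. Among genes with untreated means of at least 200, 36.8% fell in WT6 and 25.1% in WT10. TRIM28, the protein that KRAB domains bind, had 21400 untreated and 15400 at 25 ng/ml in WT6, 12200 and 8770 in WT10, and 11500 and 11400 in MUT3. It fell by 0.13 ± 0.02 and 0.08 ± 0.02 per unit of dose (adjusted p = 1.07e-05 and 0.00146). SETDB1 did not pass (−0.01 ± 0.02 and −0.02 ± 0.02, adjusted p = 0.607 and 0.56). The HP1 genes CBX1 and CBX3, the NuRD genes HDAC1 and CHD4, and DNMT1 and UHRF1 fell in both clones with trends removed, although CBX3 passed in neither before that step (adjusted p = 0.55 and 0.758). MPHOSPH8 passed in WT6 (−0.06 ± 0.02, adjusted p = 0.0306) and MORC2 in WT10 (−0.07 ± 0.02, adjusted p = 0.00716). FAM208A (the HUSH subunit TASOR), HDAC2 and CHD3 had WT6 slopes of 0.06, 0.08 and 0.06 that passed with trends removed, as did that of CHD3 in WT10, but their WT6 slopes before that step were −0.05, −0.04 and −0.03 and did not pass. HDAC2 had 3330 untreated and 2910 at 25 ng/ml in WT6, and FAM208A 1510 and 1330, so their direction turned with trend removal.

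Levels differed between the clones at every dose for a share of the members. WT6 was over 2-fold below WT10, without overlap of any library, for 24 members (12%) and over 2-fold above it for 7 (3.5%), beside 9.92% and 7.69% of all genes tested. Against MUT3 the counts were 28 below (14%) and 5 above (2.5%), beside 10.5% and 9.49%. WT10 and MUT3 differed that far in 2 members each way (1%), beside 2.44% and 1.08%. Of the 200 members 44 had clone means over 2-fold apart.

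The ratio of the highest to the lowest clone mean was largest in ZNF618 (42), ZNF219 (9.7), ZNF532 (8.26), ZNF542 (7.58), ZNF251 (4.71) and ZNF440 (4.34). ZNF219 had 72.2 to 101 in WT6, 437 to 568 in WT10 and 735 to 942 in MUT3. In all but ZNF542 the low clone was WT6. ZNF542 was the exception, with 60.8 to 120 in WT10, 99.8 to 264 in WT6 and 571 to 770 in MUT3, so that WT10 and MUT3 differed most there. ZNF251 and ZNF440, KRAB genes with 12 and 11 fingers, showed no dose slope that passed, with 71 to 95.4 in WT6 against 282 to 337 in WT10 for ZNF440.

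**Figure D5:**
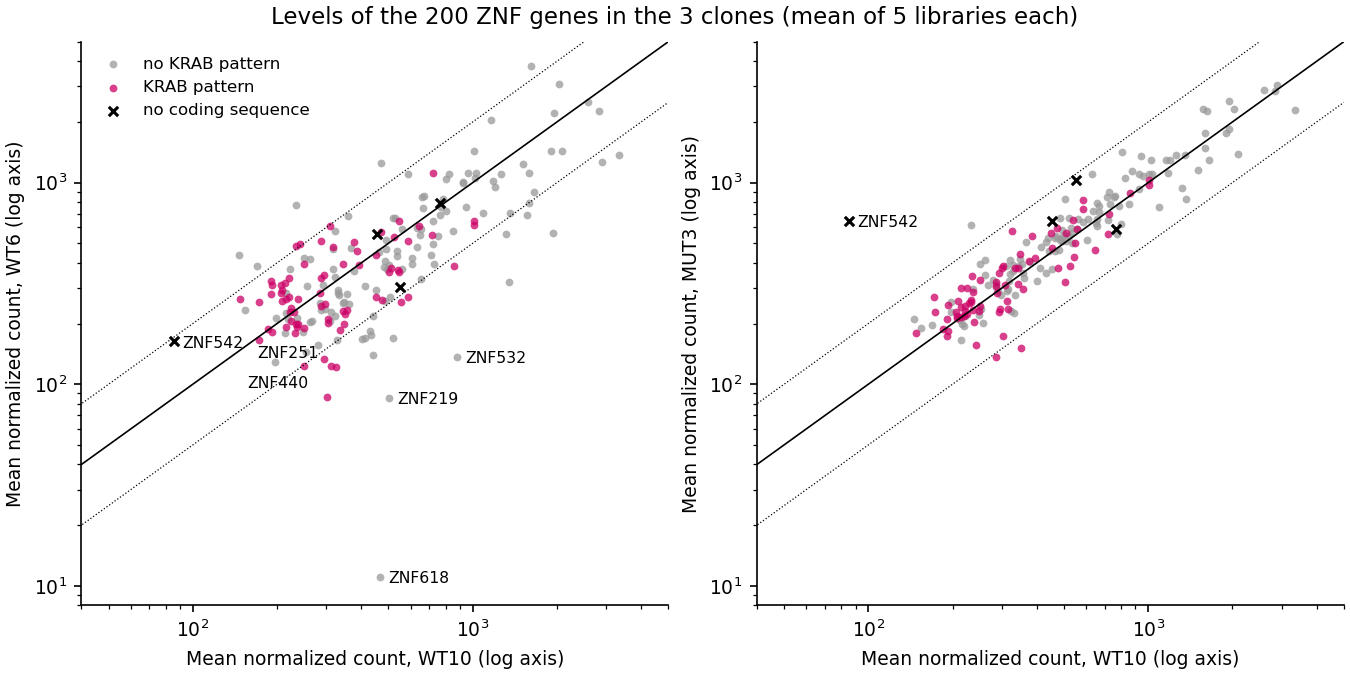
Mean normalized count over the 5 libraries of each clone for the 200 members, WT6 against WT10 (left) and MUT3 against WT10 (right), on log axes with the line of equality and dotted lines at 2-fold, marked by KRAB pattern. WT6 departs further from WT10, with ZNF618 lowest, than MUT3 does, where ZNF542 stands apart.

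The wild type clones were also compared directly. The WT6 slope was below the WT10 slope for 26 members and above it for 10 without trend removal (13% and 5%, beside 7.09% and 7.28% of all genes), and for 20 and 9 with it (10% and 4.5%, beside 8.53% and 6.57%). ZNF706, a small protein with 1 finger, had 1040, 985, 1240, 2190 and 1770 in WT6, 1750 to 2080 in WT10 and 1730 to 1820 in MUT3, and its WT6 slope of 0.19 ± 0.04 (adjusted p = 0.000397) exceeded that of WT10 by 0.18 with trends removed (adjusted p = 0.0293). The WT6 libraries up to 2.5 ng/ml were below every library of the other clones. Across the 200 members the 2 sets of slopes had a Pearson correlation of 0.54 before and 0.68 after trend removal, beside 0.60 and 0.65 over all genes, a description across genes that share libraries and scaling.

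The 5 members highest per kb of transcript had slopes of their own. ZNF76 had 1150, 1340, 1280, 1280 and 1810 in WT6, 3200, 3230, 3030, 3120 and 4140 in WT10, and 2140 to 2420 in MUT3. Its library at 25 ng/ml was the highest of its clone in both wild type clones, and with trends removed it rose in each (0.08 ± 0.02 and 0.09 ± 0.02, adjusted p = 0.00122 and 0.000766), while in WT10 it missed before that step (adjusted p = 0.0859). ZNF511 had −0.15 ± 0.03 and −0.11 ± 0.03 (adjusted p = 0.000177 and 0.00441) with trends removed and passed in neither clone before it, and 42.9% of its 75-base runs were shared with another gene. ZNF428 rose in WT6 before trend removal (0.20 ± 0.04, adjusted p = 0.000814) and not after it (0.04 ± 0.02, adjusted p = 0.11).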

How the data were processed

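PolyA-selected RNA of 15 cultures was sequenced in paired 75-base reads. Per the labels and the study's methods, the authors aligned with STAR to hg19 (GRCh37), counted with HTSeq 0.5.4 in its default mode and scaled with DESeq, and the annotation was not given in the sources used here. The deposited normalized counts (signal) are reads divided by a size factor: 100% of the values were whole multiples of the smallest in their library. No column belonged to other samples (0). Reads on no feature made up 56.5% to 59.6% of each library.

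Values were fitted as log2(value + 1) with limma 3.58.1 (R 4.3.3), precision weights, an intercept and slope for each clone (6 coefficients, 9 residual degrees of freedom) and Benjamini-Hochberg adjustment over 12644 genes with a mean of at least 10 in each clone. All 200 members passed this filter. With 1 library per clone and dose, p-values measure scatter around the dose line. The second fit first subtracted splines (4 degrees of freedom each on log10 length and GC) from each library, over 12113 genes found in GENCODE 44 (hg19 lift), 188 members by symbol and 12 by an older one. KRAB, SCAN and finger patterns were read from its coding sequences. As alternatives, recovered reads were tested with edgeR 4.0.16 and DESeq2 1.42.0. The code was tested on simulated data with 200 changed genes in 3 runs. With no trend put in, 52% to 59% of slopes of 0.15 and 90% to 96% of 0.3 were called in WT6 with trends removed. With a length trend put into WT6, 3602 to 3651 WT6 calls were false without trend removal (96% to 96.3%). With trends removed 6 to 17 were false (3.97% to 10%). The size of the simulated trend was set and not fitted to these data. For 116 members another gene overlaps on the opposite strand, which leaves those counts uncertain. 1 read was worth up to 1.36 normalized counts.

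Members and lists were chosen with earlier results of these data known. Genes were named by rule: the 8 lowest and 8 highest WT6 slopes and differences from MUT3 among members passing with trends removed, up to 12 passing in both wild type clones and both fits, function lists, threshold neighbors, the 6 largest clone ratios, the 5 highest values per kb, and passing co-repressors.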

Additional observations from a re-analysis of the deposited data

Results flagged for a closer look

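For 11 named members the dose slopes of WT6 and WT10 differed by the test of the difference itself (limma, length and GC trends removed). The WT6 slope was the higher one for ZNF593 (difference 0.19, adjusted p = 0.0174), ZNF830 (0.18, adjusted p = 0.0109), ZNF706 (0.18, adjusted p = 0.0293), ZNF268 (0.16, adjusted p = 0.0268), ZNF33A (0.13, adjusted p = 0.0403) and ZNF428 (0.09, adjusted p = 0.0235). It was the lower one for ZNF768 (−0.17, adjusted p = 0.0169), ZNF217 (−0.16, adjusted p = 0.0486), ZNF134 (−0.15, adjusted p = 0.0445), ZNF512B (−0.12, adjusted p = 0.0343) and ZNF687 (−0.12, adjusted p = 0.0352).

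ZNF830 was the one among them that passed in opposite directions, rising in WT6 (0.08) and falling in WT10 (−0.10), and it did so with trends removed only, since its WT10 slope before that was −0.06 (adjusted p = 0.156). Before trend removal the difference passed for ZNF593 (0.37, adjusted p = 0.0187), ZNF830 (0.20, adjusted p = 0.0178), ZNF428 (0.25, adjusted p = 0.0185), ZNF134 (−0.22, adjusted p = 0.0297) and ZNF217 (−0.23, adjusted p = 0.0397). It did not pass for ZNF33A (0.02, adjusted p = 0.725), ZNF268 (0.05, adjusted p = 0.482), ZNF768 (−0.08, adjusted p = 0.198), ZNF706 (0.15, adjusted p = 0.153), ZNF512B (−0.13, adjusted p = 0.165) or ZNF687 (−0.14, adjusted p = 0.105). The clones may differ in parental line as well as in RBM47 level at a given dose, and these cannot be told apart.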

How the results depend on the processing

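Counts are given here as members rising and falling (or above and below MUT3), and "adjusted" means with length and GC trends removed. Percentages in parentheses are the shares of all genes tested in the same setting and direction. A changed limit on the members leaves those shares as in the main fits. No paired analysis was possible because every clone and dose had 1 library and no replicate number was shared beyond 1. Without the 25 ng/ml libraries WT6 gave 18 and 49 (19.1% and 18.1%), WT10 0 and 0 (0.111% and 0.0238%), and the difference from MUT3 0 and 0 (0.00794% and 0%). Adjusted counts were 19 and 37 (16.8% and 18.9%), 1 and 0 (0.282% and 0.108%), and 0 and 1 (0.381% and 0.481%). The adjusted difference held 0 and 0 KRAB members and 0 and 1 members without the pattern. Calls in WT10 and in the difference were thus lost over all genes, with fewer libraries and a narrower dose range left. Without the 1 ng/ml libraries WT10 gave 8 and 8 (4.48% and 3.48%) and the difference 3 and 10 (2.67% and 4%). The adjusted counts there were 16 and 19 (11.1% and 14.6%) and 17 and 28 (9.09% and 15%). The latter held 15 and 3 KRAB members and 2 and 25 without the pattern. Without the untreated libraries WT6 gave 26 and 60 (22.7% and 22.2%), WT10 12 and 8 (6.91% and 5.72%) and the difference 8 and 13 (5.05% and 7.27%). When adjusted, 19 stood above MUT3 (10.5%), with 15 and 2 KRAB members above and below. Without the 2.5 ng/ml libraries 3 members without the pattern stood above MUT3 when adjusted (13.3%). Without those at 5 ng/ml 33 fell in WT10 (15.5%), 26 stood above MUT3 (16.7%) and 1 fell in MUT3 when adjusted (0.0165%). With the log2 RBM47 value as predictor every count was 0 except 1 rising in WT10 before adjustment (0.601%), and 97 of 100 values of single genes lost their call. Over all genes hardly any passed with this predictor, 0.601% being the highest share in any of these comparisons. With dose in ng/ml 11 fell in WT10 (7.1%) and the difference gave 11 and 13 (5.1% and 7.65%). Each clone fitted alone gave 18 and 45 in WT6 (15.7% and 15.5%), and 33 and 2 falling in WT10 and MUT3 (14.4% and 0.482%). With length as the one trend 2 members without the pattern stood above MUT3 (10.4%), and with median transcript length 14 KRAB members and 8 without the pattern did (13.3%). A lower limit takes in more members and a higher one fewer, so counts at 100 and 400 do not compare with the main counts. The number of members at each limit is not given here, so no shares can be read. A limit of 100 gave 57, 41 and 28 rising or above in WT6, WT10 and the difference, adjusted 70, 52 and 54, with 46 KRAB members. A limit of 400 gave 19 and 43 in WT6, 7 rising in WT10 and 5 above MUT3, adjusted 17 and 44, 10 rising, and 9 and 28, with 7 and 1 KRAB members and 2 above without the pattern. Leaving out members sharing over 5% of their sequence gave 3 KRAB members below MUT3. The cause was not tested.

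For 50 slopes and differences of the most extreme named genes, each in both fits (100 values), none reversed under the alternatives run within its fit: 993 values stayed on the same side of the threshold, 228 lost their call and 1 gained one. The function-list genes were not recomputed this way. With edgeR and DESeq2 on recovered reads, 49 and 48 of 50 kept theirs. A value of 3 reads corresponds to 1.19 to 4.09 normalized counts, which limits ZNF618 in WT6. The absence of replicate libraries leaves scatter around the dose line as the one measure of error.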

Other observations

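The ZNF genes below the limit of 200 gave values for the KRAB pattern in genes the rule had not taken. Of 329 such genes 247 passed the filter on low values and 245 had annotation. With trends removed, 184 of them carried the KRAB pattern, and in WT10 32 of these rose (17.4%) and 5 fell (2.72%), in WT6 41 rose (22.3%) and 31 fell (16.8%), and 33 stood above MUT3 (17.9%) and 2 below (1.09%). Over all genes 15.5% rose and 20.5% fell in WT10, 27% and 31.5% in WT6, and 14.7% and 21.5% stood above and below MUT3, so the rising shares of these genes lay near or under those of all genes and the falling shares under them. The 53 without the pattern gave 2 rising and 4 falling in WT10, 9 and 8 in WT6, and 3 above and 4 below MUT3. They share libraries, clones and scaling with the members, so they are not an independent experiment, and the filter had removed the genes with the lowest counts.

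The 45 ZFP, ZSCAN, ZKSCAN and ZBTB genes with untreated means of at least 200, of which 2 carried the KRAB pattern, gave 5 rising (11.1%) and 14 falling (31.1%) in WT6, 5 and 7 in WT10, and 3 above and 11 below MUT3 (24.4%) with trends removed, the falling share in WT6 being near the 31.5% of all genes.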
